A study of Mus musculus with 5 samples.

Results

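The F-box genes of the deposited mouse table were taken by symbol: every row named Fbxl, Fbxo or Fbxw followed by a number, without rows that carry several symbols and without pseudogene names. This gave 76 of the 56324 rows of the table, of which 19 are Fbxl, 37 Fbxo and 20 Fbxw rows. They stand for 75 symbols, because Fbxl18 has 2 rows. Messenger RNA was measured by RNA sequencing in 3 samples of spermatids, the haploid cells that shape themselves into sperm, and in 2 samples of spermatocytes, which go through meiosis. Both came from male C57Bl/6 mice, an inbred laboratory strain, aged 12 weeks, with no mutation or treatment named in the labels. The cells were separated by settling under gravity (Sta-put), which sorts cells mainly by size, so each sample is an enriched fraction and not a single cell type. Whether the samples are from different animals is not stated in the labels, and p-values here reflect sample-to-sample spread alone, possibly technical.

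An F-box protein is the exchangeable part of an SCF ubiquitin ligase. Its F-box binds SKP1, which joins it to the cullin CUL1 and the RING protein RBX1, and the rest of the protein picks the substrate that is to be tagged with ubiquitin, usually for destruction by the proteasome. The family is named by the part that picks the substrate: leucine-rich repeats in Fbxl, WD40 repeats in Fbxw, and other or no known domains in Fbxo. In male germ cells ubiquitin tagging serves the meiotic divisions, the exchange of histones for protamines and the removal of cytoplasm from the maturing sperm.

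Each value below is a normalized count, the reads of a gene divided by the authors' size factor for that library, and the libraries held 52784231 to 84361908 reads. Log2 fold changes are spermatids over spermatocytes on log2(normalized count + 1) with their standard error (SE), and adjusted p-values come from limma over all 28370 rows with a mean of at least 10 (Benjamini-Hochberg, threshold 0.05). In bulk RNA, fewer cells of a type and less RNA per cell cannot be told apart. All 13 measured spermatid markers were higher in spermatids, and in spermatocytes they stood at 1.18 to 2.58% of their spermatid mean. Of 10 measured spermatocyte markers, 5 were lower in spermatids, among them Piwil1 and Spo11, and 3 low ones, Ccnb3, Rad51ap2 and Mei4, were higher. Of 19 Sertoli cell markers, 18 were lower in spermatids, where their sum was 7845 to 9659, against 91992 to 120574 in spermatocytes, and none was at 0 throughout. All 8 Leydig cell markers were also lower in spermatids, with sums of 166 to 386 against 3294 to 4053 in spermatocytes. Of 13 spermatogonia markers 7 were higher in spermatids and 3 lower, with sums of 3157 to 3834 in spermatids against 5719 to 6033 in spermatocytes. Of 13 markers of myoid, endothelial, macrophage and blood cells 9 were higher in spermatids and 1 lower, with sums of 2972 to 4508 against 711 to 744 in spermatocytes. The part of these cells in the F-box values was not tested.

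The F-box genes were a small share of each library, and a few genes held most of it. Together the 76 rows made up 0.253%, 0.288% and 0.287% of the counts of spermatid replicates 1, 2 and 3, against 0.294% and 0.292% in spermatocytes. The shares within the family, which do not depend on how libraries are scaled, showed which genes lead in each cell type. Fbxw5, whose human protein marks a centriole assembly protein for destruction, held 15.2%, 15.3% and 16.8% of the F-box counts in spermatids, against 33.1% and 33.5% in spermatocytes. Fbxo30 held 18.2%, 16.1% and 16.1% in spermatids, against 8.94% and 8.55% in spermatocytes. Fbxw5 and Fbxo30 thus took the first 2 ranks by mean in both cell types, in opposite order. The ranks behind them changed more. Fbxl13 held 13.8%, 13.4% and 13.0% in spermatids, against 0.506% and 0.408% in spermatocytes. Fbxo24 held 7.93%, 10.4% and 9.37% in spermatids, against 0.644% and 0.644% in spermatocytes. On the other side, Fbxo43 held 0.632%, 0.361% and 0.306% in spermatids, against 6.64% and 4.85% in spermatocytes. Fbxo3 and Fbxo9 moved the same way: Fbxo3 held 0.292%, 0.319% and 0.258% in spermatids, against 3.99% and 3.95% in spermatocytes. Fbxo38 held 7.23%, 7.15% and 7.61% in spermatids, against 6.35% and 6.42% in spermatocytes. Fbxo36 held 6.64%, 7.43% and 7.22% in spermatids, against 5.69% and 5.23% in spermatocytes. Both were thus among the leading genes of both cell types, with somewhat higher shares in spermatids.

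**Figure D1:**
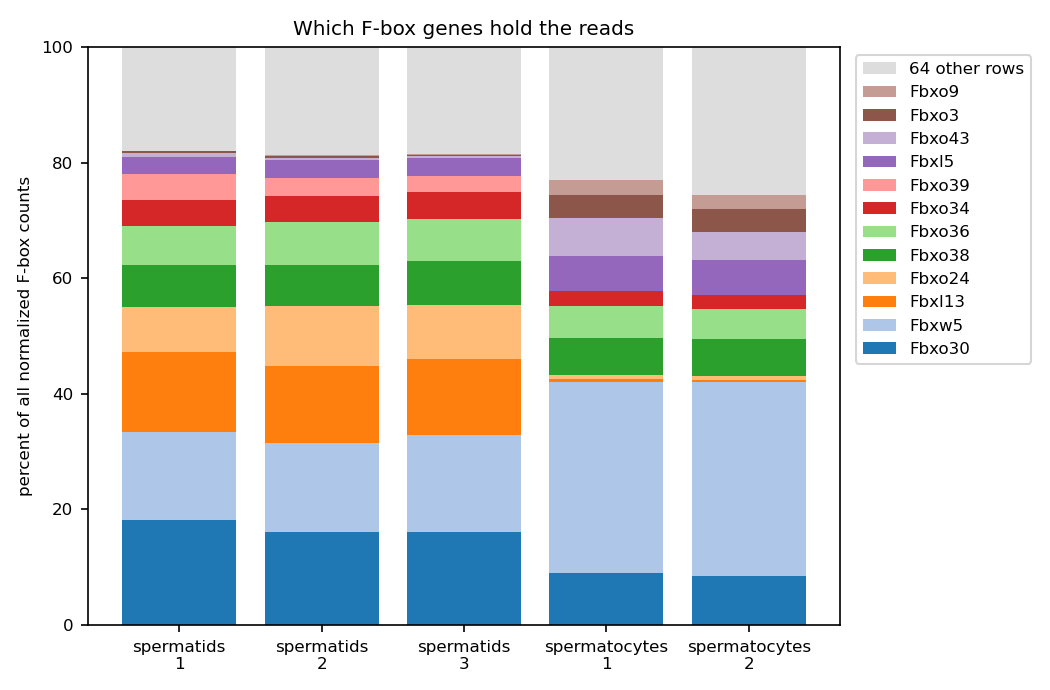
Share of all normalized F-box counts (vertical axis, percent) taken by the 12 F-box genes that are drawn and by the 64 other rows, in each of the 3 spermatid and 2 spermatocyte libraries. Fbxl13 and Fbxo24 are wide bands in the spermatid bars and thin ones in the spermatocyte bars, while Fbxo43, Fbxo3 and Fbxo9 are the reverse.

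Most measurable F-box genes differed between the cell types, in both directions. Of the 69 rows with a mean of at least 10, 27 were higher in spermatids, 29 were lower and 13 did not pass the threshold. Over all 28370 rows tested, 77.1% passed, 40.6% higher and 36.5% lower, which the F-box counts are read against. The median log2 fold change was -0.32 over the F-box rows and 0.07 over all rows tested. The values of the 2 cell types did not overlap for 28 F-box rows that were higher and 32 that were lower, where 44.3% and 41.5% of all rows tested, 85.8% together, did not overlap. At 4-fold or more, 12 F-box rows were higher in spermatids and 8 were lower, against 24.6% and 17.6% of all rows. At 16-fold or more, 6 were higher, Fbxo39, Fbxo2, Fbxl13, Fbxo40, Fbxo24 and Fbxw20, and only Fbxo48 was lower, against 14.4% and 4.97% of all rows. By name group, 5 of 19 Fbxl rows were higher and 9 lower, 17 of 37 Fbxo rows were higher and 13 lower, and 5 of the 13 tested Fbxw rows were higher and 7 lower. The split follows the scaling. With every library set to the same total, 18 F-box rows were higher and 34 lower (30.5% and 49.4% of all rows), and with quantile normalization 19 and 33 (32.9% and 46.9%). The Fbxo rows then split into 11 higher and 16 lower, and 11 and 15, so their balance turned; the Fbxl rows split into 3 and 11, and 4 and 11, and the Fbxw rows into 4 and 7 under both. The median over all rows was then -0.57 and -0.42, against 0.07 with the deposited scaling. Rises larger than these medians also lost their call with equal library totals. Among them were Fbxo36 (log2 fold change 0.93, then 0.29), Fbxl12 (1.00, then 0.36) and Fbxl7 (1.63, then 1.00). Changes of such sizes and smaller are therefore read relative to the deposited scaling.

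**Figure D2:**
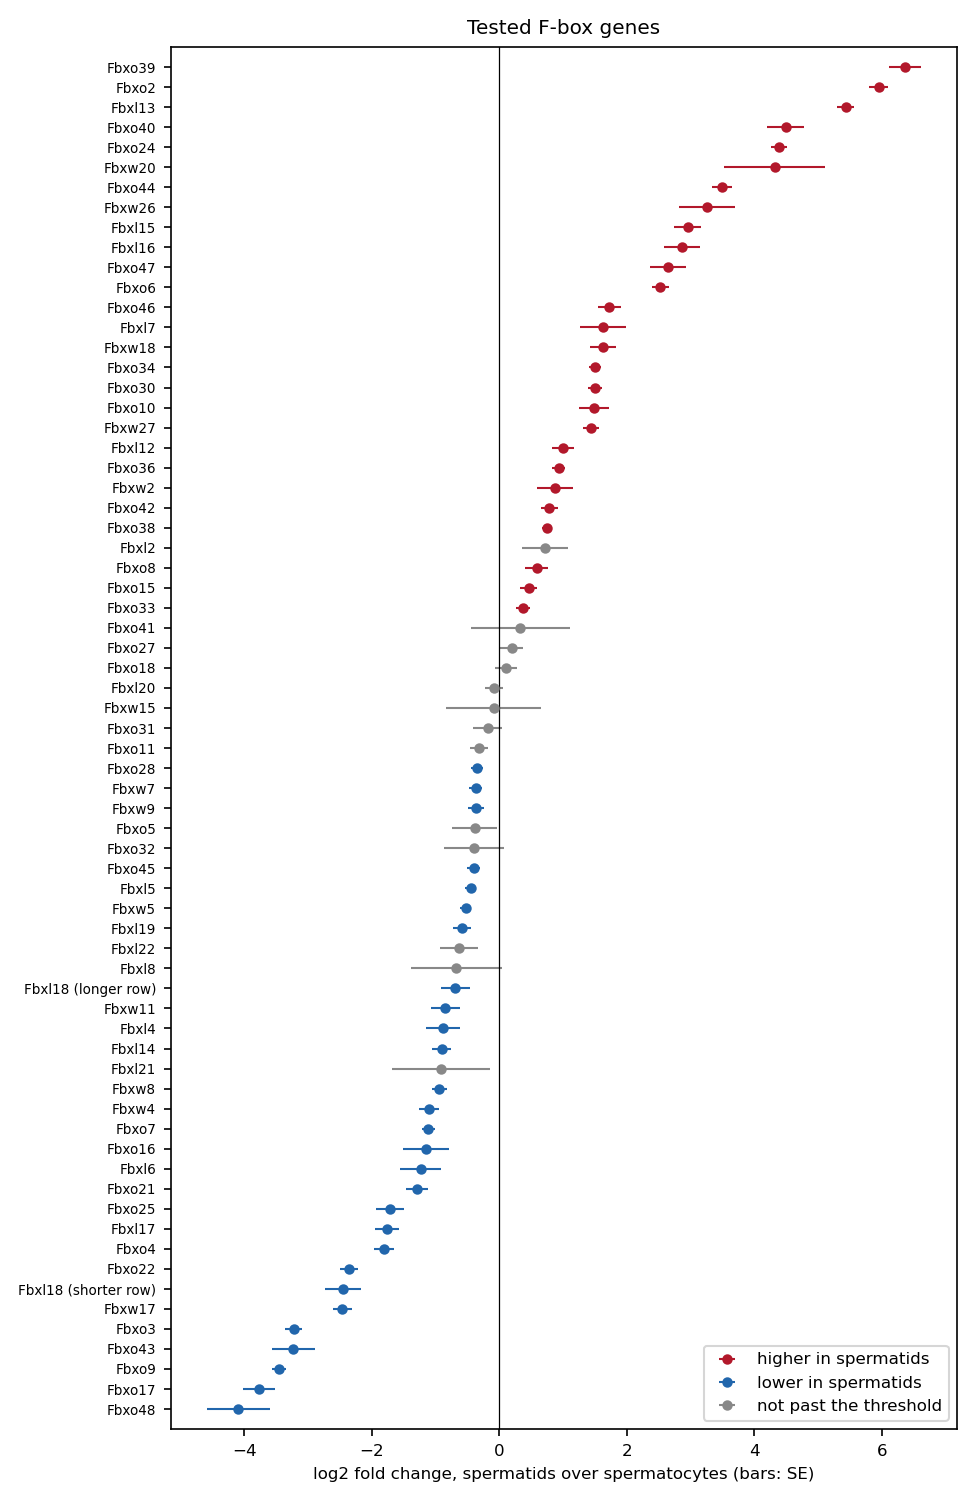
Log2 fold change of spermatids over spermatocytes (horizontal axis) with its SE (bars) for 68 of the 69 tested F-box rows, from highest to lowest. Points run from 6.37 for Fbxo39 to -4.09 for Fbxo48; red rows were higher in spermatids, blue rows lower and grey rows not past the threshold.

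The largest rises were in Fbxo39, Fbxo2, Fbxl13, Fbxo40 and Fbxo24, in this order, of which Fbxo2 and Fbxo40 are described further below. Fbxo39 had normalized counts of 10941, 7461 and 6681 in spermatids, against 119.6 and 80.5 in spermatocytes (log2 fold change 6.37 ± 0.25 SE, adjusted p = 1.7e-06). Spermatid replicate 1 was highest, and even the lowest spermatid sample stood far above both spermatocyte samples. Fbxl13, whose protein is a subunit of the nexin-dynein regulatory complex that links the outer microtubule doublets of the sperm tail, had 33606, 32217 and 30077 in spermatids, against 847 and 644 in spermatocytes (log2 fold change 5.43 ± 0.13 SE, adjusted p = 4.5e-07). The spermatid samples lay close to each other. Fbxo24, which mouse knockouts tie to sperm structure and male fertility, had 19355, 24949 and 21642 in spermatids, against 1077 and 1014 in spermatocytes (log2 fold change 4.39 ± 0.12 SE, adjusted p = 5.5e-07). Per kilobase of exon, Fbxo24 averaged 8751 normalized counts in spermatids, above Fbxo36 with 7874 and Fbxo30 with 7731 and below Fbxw5 with 12299.7. In spermatocytes, Fbxo39 stood at 1.20% of its spermatid mean, Fbxo2 at 1.59% and Fbxl13 at 2.33%. These shares lie within the 1.18 to 2.58% seen for the spermatid markers in the spermatocyte samples, and the part of spermatids within those samples was not tested. Fbxo24, at 4.76%, and Fbxo44, at 8.80%, were above that range.

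Lower-abundance genes made up the rest of the largest rises. Fbxo40, known from skeletal muscle, where it targets an insulin receptor substrate, had 195, 269 and 281 in spermatids, against 8.62 and 11.4 in spermatocytes (log2 fold change 4.49 ± 0.29 SE, adjusted p = 1.4e-05). Fbxl15, whose human protein acts on the ubiquitin ligase SMURF1, had 665, 974 and 857 in spermatids, against 93.7 and 117 in spermatocytes (log2 fold change 2.96 ± 0.21 SE, adjusted p = 2.2e-05). The Fbxl15 row overlaps that of Cuedc2, which has a higher mean, and reads of overlapping rows cannot be told apart here. Fbxl16 had 247, 247 and 349 in spermatids, against 30.2 and 45.6 in spermatocytes (log2 fold change 2.87 ± 0.28 SE, adjusted p = 9.8e-05). For these 3 genes the lowest spermatid value was more than 5 times the highest spermatocyte value. Fbxo47, which mouse spermatocytes need to complete meiotic prophase, had 495, 593 and 349 in spermatids, against 60.3 and 90.5 in spermatocytes (log2 fold change 2.65 ± 0.29 SE, adjusted p = 0.00016). All spermatid samples of Fbxo47 were above both spermatocyte samples. Fbxo46 (log2 fold change 1.73 ± 0.18 SE, adjusted p = 0.00014) and Fbxo34 (log2 fold change 1.50 ± 0.09 SE, adjusted p = 9.4e-06) were further abundant genes that rose, Fbxo46 with 7112, 4648 and 5050.4 in spermatids, against 1645 and 1679.7 in spermatocytes. For Fbxo34, 16.7% of the 50-base stretches of its transcripts also occur in Gm7224, so its level is uncertain.

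The promoter of the gene with the largest rise is shown because the family is read below for motifs of CREM, the activator of many spermatid genes. The 250 bases before the RefSeq start of Fbxo39 (GRCm38.p6, chr11:72314194-72314443, plus strand) hold 1 TGACG, the core of a cyclic AMP response element, on the minus strand; its letters as read on the plus strand are in capitals, 53 bases before the start.
Fbxo39: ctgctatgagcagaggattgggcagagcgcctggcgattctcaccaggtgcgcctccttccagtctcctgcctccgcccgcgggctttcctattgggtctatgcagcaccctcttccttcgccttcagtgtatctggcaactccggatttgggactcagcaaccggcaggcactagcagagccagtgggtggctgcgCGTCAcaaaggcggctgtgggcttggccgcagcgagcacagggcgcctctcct

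Members at both ends belong to a subfamily with a shared FBA domain, which in several of its proteins binds sugar chains of misfolded glycoproteins. The grouping of these 5 genes was made after their values were seen, so it is a description. Fbxo2, best known from brain and inner ear, had 2289.9, 2542 and 2323 in spermatids, against 33.4 and 42.2 in spermatocytes (log2 fold change 5.95 ± 0.16 SE, adjusted p = 5e-07). Fbxo44 had 5854, 4508 and 4219 in spermatids, against 448 and 408 in spermatocytes (log2 fold change 3.49 ± 0.16 SE, adjusted p = 2.9e-06). Fbxo6 had 1171, 1251 and 1088 in spermatids, against 209 and 194 in spermatocytes (log2 fold change 2.53 ± 0.13 SE, adjusted p = 5e-06). In each of these the spermatid samples were above both spermatocyte samples. The 3 genes are neighbours on chromosome 4, between positions 148145716 and 148166415 of mm10. Fbxo17 went the other way, with 35.7, 38.7 and 47.2 in spermatids, against 472 and 659.8 in spermatocytes (log2 fold change -3.76 ± 0.25 SE, adjusted p = 1.7e-05), and the spermatocyte samples were all above the spermatid samples. Its neighbour on chromosome 7, Fbxo27, had 287, 229.9 and 245 in spermatids, against 207 and 235 in spermatocytes and did not pass the threshold (log2 fold change 0.20 ± 0.18 SE, adjusted p = 0.34). Fbxo17 and Fbxo27 thus lie side by side, and only Fbxo17 passed the test; the difference between them was not tested.

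Fbxo44 and Fbxo2 start 574 bases apart and are read away from each other. Part of the stretch between the starts is annotated as exon of Fbxo44 or Fbxo2. Of the 250 bases before each start, the longest run without annotated exons is shown, because both genes rose. The middle of the stretch lies outside both sets of 250 bases and was not searched. The stretch next to the Fbxo44 start, the first that RefSeq lists (GRCm38.p6, chr4:148160095-148160315, minus strand), is printed without annotated exons. The one for Fbxo2 (chr4:148160483-148160620, plus strand) likewise holds none and stops 47 bases short of the Fbxo2 start. TGACG is in capitals and occurs once in the printed bases, 44 bases before the Fbxo44 start. Bases outside the printed stretches were not marked.
Fbxo44: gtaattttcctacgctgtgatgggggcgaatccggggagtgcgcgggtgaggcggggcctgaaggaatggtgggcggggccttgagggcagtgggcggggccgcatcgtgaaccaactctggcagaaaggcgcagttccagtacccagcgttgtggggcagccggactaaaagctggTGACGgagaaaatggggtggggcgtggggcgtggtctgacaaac
Fbxo2: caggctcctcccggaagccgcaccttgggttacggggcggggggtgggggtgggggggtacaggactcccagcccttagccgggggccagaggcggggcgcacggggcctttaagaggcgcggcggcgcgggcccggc

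**Figure D3:**
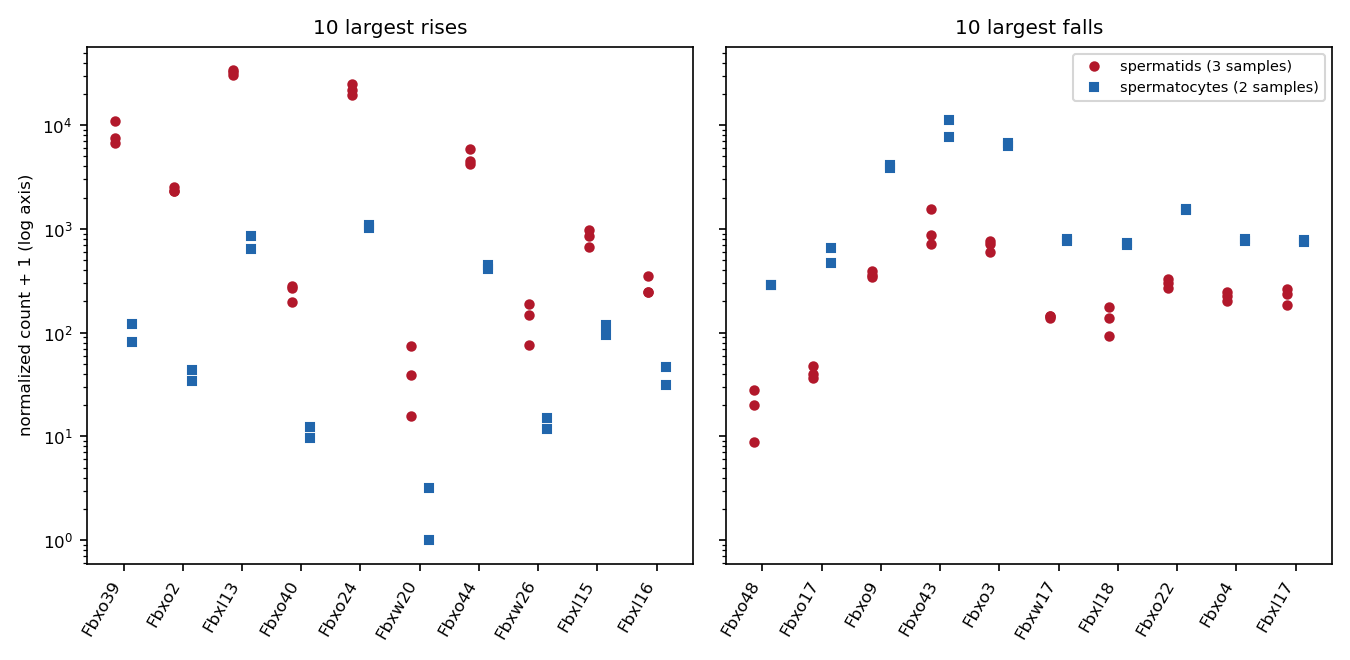
Normalized count + 1 (vertical axis, log scale) in each sample for the 10 F-box rows with the largest rise (left) and the 10 with the largest fall (right); red points are the 3 spermatid samples and blue squares the 2 spermatocyte samples. In all 20 rows the groups do not overlap; Fbxl18 is its shorter row.

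Among the genes that fell, Fbxo43 has the best-known link to meiosis. Its protein, EMI2, inhibits the anaphase-promoting complex and holds vertebrate eggs at the second meiotic metaphase, and mice without it are infertile in both sexes. Fbxo43 had 1541, 867 and 707 in spermatids, against 11103 and 7652 in spermatocytes (log2 fold change -3.23 ± 0.33 SE, adjusted p = 0.00013). Its values were uneven in both cell types, and the highest spermatid value, in replicate 1, was still far below the lower spermatocyte value. Fbxo5, which encodes the mitotic relative EMI1, had 69.8, 147 and 79.6 in spermatids, against 131 and 114 in spermatocytes and did not pass the threshold (log2 fold change -0.39 ± 0.35 SE, adjusted p = 0.35). With spermatid replicate 2 left out, Fbxo5 passed as lower, with a log2 fold change of -0.71 (limma adjusted p = 0.049), and likewise with equal library totals (-1.03, adjusted p = 0.044). A share of 8.71% of the 50-base stretches of the Fbxo5 transcripts also occurs in Gm16042, and how reads shared by genes were counted is not given in the sources used here.

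Fbxo48, Fbxo9 and Fbxo3 fell by more than 8-fold, as did Fbxo17 and Fbxo43; over all rows tested, 10.2% did. Fbxo9, whose human protein acts on regulators of mTOR, had 343, 389 and 358 in spermatids, against 4119 and 3858 in spermatocytes (log2 fold change -3.45 ± 0.12 SE, adjusted p = 8.8e-07). Fbxo3, whose protein acts on another F-box protein, FBXL2, had 712, 768 and 596 in spermatids, against 6676 and 6228 in spermatocytes (log2 fold change -3.23 ± 0.13 SE, adjusted p = 2e-06). Both were among the 8 most abundant F-box genes of spermatocytes and ranked 36 and 32 in spermatids. Fbxo48 had 7.75, 26.8 and 18.9 in spermatids, against 289.8 and 284 in spermatocytes (log2 fold change -4.09 ± 0.50 SE, adjusted p = 0.00028). Fbxo22, whose human protein acts on a histone demethylase, had 265, 329 and 301 in spermatids, against 1503 and 1554 in spermatocytes (log2 fold change -2.36 ± 0.14 SE, adjusted p = 1e-05). The spermatocyte samples of both genes agreed closely and lay far above all spermatid samples. Fbxo4, known to act on the telomere protein TRF1 in human cells, had 243, 222 and 199 in spermatids, against 792 and 761 in spermatocytes (log2 fold change -1.81 ± 0.15 SE, adjusted p = 4.9e-05). Fbxl17, whose human protein removes wrongly paired BTB-domain proteins, had 184, 264 and 235 in spermatids, against 771 and 752 in spermatocytes (log2 fold change -1.75 ± 0.19 SE, adjusted p = 0.00015). In all of these genes the groups did not overlap. Fbxl18 has 2 rows on chromosome 5. The shorter, from 142866948 to 142870294, had 91.5, 176 and 136 in spermatids, against 694 and 731 in spermatocytes (log2 fold change -2.44 ± 0.28 SE, adjusted p = 0.00021). The longer, from 142871789 to 142895422, had 228, 339 and 339.6 in spermatids, against 424 and 539.8 in spermatocytes (log2 fold change -0.69 ± 0.23 SE, adjusted p = 0.03). Both rows fell, by different amounts, and the difference between the rows was not tested; the call of the longer row was lost without spermatocyte replicate 1 (-0.86, adjusted p = 0.051) or 2 (-0.51, 0.19), with no filter on low values (0.051) and with no eBayes trend (0.058).

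Of the 6 F-box genes with the highest means, Fbxl13 and Fbxo24 are described above; the other 4 were Fbxw5, Fbxo30, Fbxo38 and Fbxo36, and for Fbxo38 and Fbxo36 the call follows the scaling. Fbxw5 had 37049.9, 36736 and 38830.2 in spermatids, against 55394 and 52802 in spermatocytes (log2 fold change -0.53 ± 0.08 SE, adjusted p = 0.00092). Fbxo30, a gene induced in wasting muscle of mice, had 44433, 38803 and 37299 in spermatids, against 14941 and 13478 in spermatocytes (log2 fold change 1.50 ± 0.11 SE, adjusted p = 2.3e-05). Both calls held with equal library totals and with quantile normalization. Fbxo38, whose protein acts on the receptor PD-1 in T cells, had 17642, 17203 and 17575 in spermatids, against 10623 and 10121 in spermatocytes (log2 fold change 0.75 ± 0.08 SE, adjusted p = 0.00014). Fbxo36 had 16206, 17858 and 16673 in spermatids, against 9519.8 and 8239 in spermatocytes (log2 fold change 0.93 ± 0.10 SE, adjusted p = 0.00015). Neither Fbxo38 nor Fbxo36 passed with equal library totals, where their log2 fold changes were 0.11 and 0.29, or with quantile normalization, where they were 0.00 and 0.18. The Fbxo36 row also overlaps that of Trip12, which has a higher mean. Fbxl5, the iron sensor that controls the iron regulatory protein IRP2, had 7164, 7478 and 7009 in spermatids, against 10119.7 and 9548 in spermatocytes (log2 fold change -0.45 ± 0.08 SE, adjusted p = 0.0024) and was lower in all spermatid samples.

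Of the remaining members described by name, Fbxw7, Fbxw11, Fbxo7 and Fbxw17 were lower in spermatids. Fbxw7, which directs cyclin E, MYC and NOTCH1 to destruction, had 2371, 2296 and 2093 in spermatids, against 2987 and 2811 in spermatocytes (log2 fold change -0.36 ± 0.10 SE, adjusted p = 0.014). Fbxw11, a beta-TrCP gene, had 223, 356 and 285 in spermatids, against 459 and 567 in spermatocytes (log2 fold change -0.85 ± 0.23 SE, adjusted p = 0.012). The call of Fbxw7 was lost without either spermatocyte replicate (adjusted p = 0.10 without replicate 1 and 0.051 without replicate 2), and that of Fbxw11 without spermatocyte replicate 2 (-0.70, adjusted p = 0.10). Fbxo7, a gene of inherited parkinsonism in humans that acts in the clearance of damaged mitochondria, had 1040.3, 1053 and 1084 in spermatids, against 2409.6 and 2187 in spermatocytes (log2 fold change -1.12 ± 0.10 SE, adjusted p = 7.3e-05). Both spermatocyte samples of Fbxo7 were more than 2 times as high as any spermatid sample. Fbxw8, which pairs with the cullin CUL7, had 1048, 1259 and 1111 in spermatids, against 2111 and 2245 in spermatocytes (log2 fold change -0.94 ± 0.12 SE, adjusted p = 0.00034). Fbxw17, a gene on chromosome 13, had 143, 138 and 144 in spermatids, against 764 and 804 in spermatocytes (log2 fold change -2.46 ± 0.15 SE, adjusted p = 1e-05).

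A tandem cluster on chromosome 9, from 109139450 to 109773905 of mm10, holds 12 of the 20 Fbxw rows. In it 5 rows were tested, 4 of them higher in spermatids and none lower, where 40.6% and 36.5% of all rows tested were. The same 4 were higher under TMM factors, equal library totals and quantile normalization. Of the 8 Fbxw rows elsewhere, Fbxw2 was higher in spermatids and 7 were lower, and Fbxw2 did not pass with equal library totals or quantile normalization. Whether the cluster differs from the other Fbxw genes was not tested. Fbxw27, the most abundant gene of the cluster, had 1369, 1461 and 1234 in spermatids, against 508 and 485 in spermatocytes (log2 fold change 1.44 ± 0.12 SE, adjusted p = 5.1e-05). Fbxw18 had 321, 258 and 292 in spermatids, against 84.0 and 103 in spermatocytes (log2 fold change 1.62 ± 0.20 SE, adjusted p = 0.00029). Fbxw26 had 188, 74.3 and 146 in spermatids, against 10.8 and 14.1 in spermatocytes (log2 fold change 3.26 ± 0.44 SE, adjusted p = 0.00045), and its lowest spermatid value was more than 5 times the higher spermatocyte value. Fbxw20 had 72.9, 37.7 and 14.7 in spermatids, against 2.15 and 0 in spermatocytes (log2 fold change 4.32 ± 0.79 SE, adjusted p = 0.0021), from 99 reads in spermatids and 2 in spermatocytes. With the reads of each cell type pooled and set against its summed size factors, the ratio was 45.9, with an exact 95% counting interval of 12.4 to 384 that covers counting error only; the ratio of the mean normalized counts was 38.7. Fbxw20 reached a mean of 10 only through the spermatid samples, so its place among the higher genes was favoured by the filter. Fbxw15 had 24.8, 4.96 and 30.4 in spermatids, against 19.4 and 14.8 in spermatocytes and did not pass (log2 fold change -0.08 ± 0.74 SE, adjusted p = 0.92).

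The other 7 genes of the cluster were too low to test. Fbxw21 had 24 reads in spermatids and 7 in spermatocytes, Fbxw24 had 16 and 2, Fbxw25 had 12 and 4, and Fbxw13 had 10 and 0. Fbxw14, Fbxw22 and Fbxw28 had no read in any library, which at this depth allows up to 3 reads in each library. Some copies share long stretches. Of the 50-base stretches in the transcripts of Fbxw28, 61.5% also occur in another gene, most of all Fbxw14, and for Fbxw14 the share was 58.9%. In the other 10 genes of the cluster the shares were 5.77 to 10.7%. The levels of Fbxw14 and Fbxw28 are therefore uncertain.

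**Figure D4:**
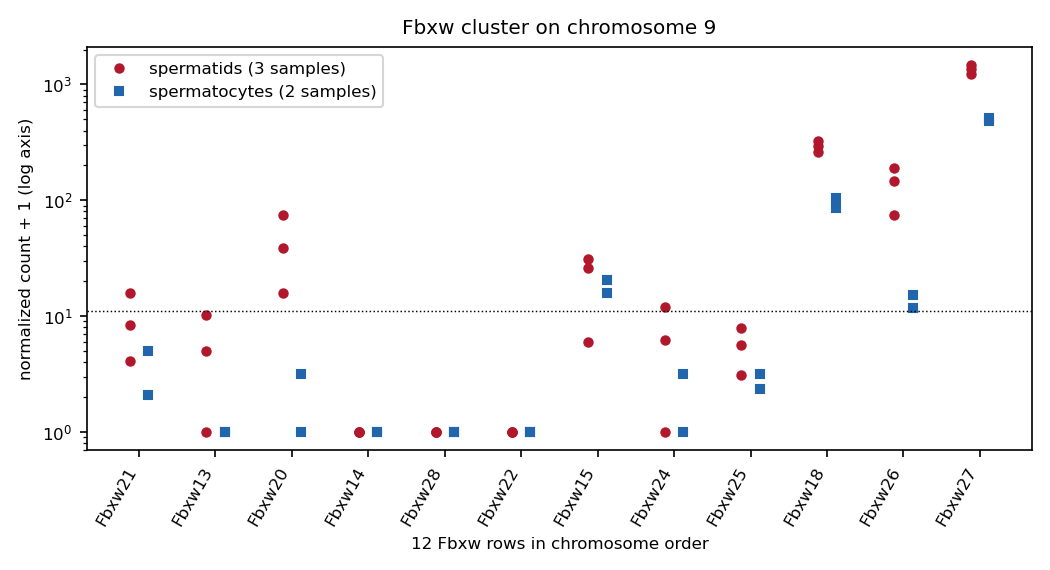
Normalized count + 1 (vertical axis, log scale) of the 12 Fbxw genes of the chromosome 9 cluster in chromosome order, in 3 spermatid (red) and 2 spermatocyte (blue) samples; the dotted line marks a normalized count of 10, the mean needed for the test. Fbxw27 stands highest, Fbxw26 and Fbxw20 show the widest gaps, and Fbxw14, Fbxw28 and Fbxw22 lie at 0.

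The upstream sequences of the cluster resemble each other. RefSeq gives a promoter for 9 of the 12 genes, and over the 36 pairs the 250 bases before the start were 73.4 to 96.4% identical, with a median of 86.9%. Fbxw26 was 90.9% identical to Fbxw14, 89.7% to Fbxw28 and 92.1% to Fbxw25. Its mean was 136 in spermatids, against 4.56 for Fbxw25 and no read for Fbxw14 and Fbxw28. These 4 are shown to let the letters be compared, all on the minus strand of GRCm38.p6: Fbxw26 at chr9:109746090-109746339, Fbxw14 at chr9:109287677-109287926, Fbxw28 at chr9:109339660-109339909 and Fbxw25 at chr9:109664653-109664902. Capitals mark bases that differ from Fbxw26 or are absent from it. Against Fbxw26, Fbxw14 had 15 differing, 4 added and 4 missing bases, Fbxw28 had 20, 3 and 3, and Fbxw25 had 16, 2 and 2. The likeness is of letters in this window only.
Fbxw26: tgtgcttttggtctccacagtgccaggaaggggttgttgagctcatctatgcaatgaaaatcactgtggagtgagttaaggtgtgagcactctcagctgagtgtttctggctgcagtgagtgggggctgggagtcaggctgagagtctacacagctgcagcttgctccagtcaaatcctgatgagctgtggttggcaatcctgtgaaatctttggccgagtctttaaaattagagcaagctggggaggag
Fbxw14: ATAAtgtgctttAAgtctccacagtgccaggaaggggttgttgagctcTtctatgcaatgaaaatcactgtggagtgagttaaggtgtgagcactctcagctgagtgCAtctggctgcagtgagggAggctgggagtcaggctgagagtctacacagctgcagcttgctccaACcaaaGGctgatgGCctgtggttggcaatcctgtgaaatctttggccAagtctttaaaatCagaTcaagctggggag
Fbxw28: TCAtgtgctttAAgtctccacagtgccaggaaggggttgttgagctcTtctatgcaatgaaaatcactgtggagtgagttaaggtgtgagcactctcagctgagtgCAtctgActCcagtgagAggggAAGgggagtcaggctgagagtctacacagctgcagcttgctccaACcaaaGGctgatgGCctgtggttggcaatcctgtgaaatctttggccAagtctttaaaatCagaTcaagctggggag
Fbxw25: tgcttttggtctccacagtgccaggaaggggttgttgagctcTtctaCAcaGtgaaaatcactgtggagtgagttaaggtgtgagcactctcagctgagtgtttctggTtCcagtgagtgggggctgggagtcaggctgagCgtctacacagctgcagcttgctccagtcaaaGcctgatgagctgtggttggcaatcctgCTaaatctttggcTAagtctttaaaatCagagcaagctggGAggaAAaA

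Of the 13 F-box rows that did not pass, 6 had the highest means. Fbxo18, a DNA helicase of recombination also called FBH1, had 882, 1239.9 and 1155 in spermatids, against 923 and 1089.6 in spermatocytes (log2 fold change 0.11 ± 0.18 SE, adjusted p = 0.59). Fbxl20, known from synapses, had 649.6, 709 and 776 in spermatids, against 809 and 699 in spermatocytes (log2 fold change -0.08 ± 0.14 SE, adjusted p = 0.59). Fbxo11, which acts on BCL6, had 344, 381 and 341 in spermatids, against 437 and 447 in spermatocytes (log2 fold change -0.32 ± 0.14 SE, adjusted p = 0.073). The Fbxo11 row overlaps that of Msh6, which has a higher mean. Fbxo31 had 76.0, 88.2 and 89.1 in spermatids, against 99.1 and 92.5 in spermatocytes (log2 fold change -0.18 ± 0.23 SE, adjusted p = 0.48). In Fbxo18 and Fbxl20 the groups overlapped, and in Fbxo11 and Fbxo31 every spermatid sample was below both spermatocyte samples. Fbxl20, Fbxo11 and Fbxo31 passed as lower with equal library totals, with log2 fold changes of -0.73, -0.96 and -0.82, and with quantile normalization, and Fbxo11 also with TMM factors (-0.42). Fbxo27 and Fbxo5, described above, complete the 6. The other 7, Fbxl2, Fbxl8, Fbxl21, Fbxl22, Fbxo32, Fbxo41 and Fbxw15, had lower means. Fbxo32, the muscle-wasting gene atrogin-1, had 18.6, 23.8 and 21.0 in spermatids, against 17.2 and 44.9 in spermatocytes and showed a wide gap between the spermatocyte samples.

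The TGACG core lay in the promoters of 19 F-box genes, on both sides of the comparison. Of the 75 symbols, 55 had a RefSeq promoter of 250 bases before the start, and 34.5% of these held TGACG on either strand, against 19.8% of 27025 genes and 26.7% of the 13011 tested genes. The share was 10 of 22 for F-box genes higher in spermatids, 45.5%, and 7 of 18 for those lower, 38.9%, against 26.7% and 27.7% of all tested genes higher and lower. The full element TGACGTCA, which contains TGACG, occurred in 1 of the 55, Fbxw9, and in 1.77% of all genes. CNGTTA, a MYB core, occurred in 12.7% of the F-box promoters and in 22.3% of all genes. None of these shares was tested, and a match is a run of letters and not a measured binding site.

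Genes of the ligase core moved in both directions, and the counts of this and the following lists are read beside the 40.6% of all tested rows that were higher in spermatids and the 36.5% that were lower. List counts with equal library totals are read beside 30.5% higher and 49.4% lower over all rows. Those with quantile normalization are read beside 32.9% and 46.9%. Of 7 measured genes of the SCF core and its regulators, 4 were higher in spermatids and 2 lower, with a median log2 fold change of 0.35. Cul1, the scaffold, had 15550.5, 15269.9 and 14148 in spermatids, against 9595 and 9385 in spermatocytes (log2 fold change 0.66 ± 0.09 SE, adjusted p = 0.00038). Skp1a, the adaptor, had 18180.0, 16299.7 and 16516 in spermatids, against 16208 and 15623 in spermatocytes and did not pass (log2 fold change 0.09 ± 0.09 SE, adjusted p = 0.36). Rbx1, the RING subunit, had 467, 377 and 378 in spermatids, against 1527 and 1412 in spermatocytes (log2 fold change -1.86 ± 0.15 SE, adjusted p = 3.5e-05). Rbx1 was thus lower in every spermatid sample while its partner Cul1 was higher in every one. Cacul1, a CUL1-binding protein, had 14081, 11344 and 10570.3 in spermatids, against 364 and 425 in spermatocytes (log2 fold change 4.92 ± 0.15 SE, adjusted p = 6.3e-07). Cand1, which exchanges F-box subunits on CUL1, rose (log2 fold change 0.68 ± 0.09 SE, adjusted p = 0.00033), as did Glmn, which binds RBX1 and blocks it (log2 fold change 0.35 ± 0.10 SE, adjusted p = 0.016), while Cand2 fell (log2 fold change -0.73 ± 0.18 SE, adjusted p = 0.0082). The rises of Cul1, Cand1 and Glmn depend on the scaling, and the call of Glmn was also lost without spermatocyte replicate 1 (adjusted p = 0.082) or 2 (0.079), and that of Cand2 without spermatocyte replicate 1 (0.065). With equal library totals the log2 fold changes of Cul1 and Cand1 were 0.01 and 0.04 and did not pass, Glmn and Skp1a passed as lower at -0.29 and -0.55, and 1 of the 7 genes was higher and 4 lower. With quantile normalization 1 was higher and 3 lower.

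Of 8 F-box genes with names outside the Fbx series, Nccrp1 reached a mean of 10 only through the spermatid samples. It had 57.4, 9.91 and 19.9 in spermatids, against 0 and 1.34 in spermatocytes, so its higher call was favoured by the filter. Among the 8 genes, Nccrp1 included, 4 were higher in spermatids, 2 were lower and 2 did not pass. With equal library totals 2 were higher and 4 lower; after quantile normalization the counts were 4 and 4. Skp2, which directs the cell-cycle inhibitor p27 to destruction, had 12496, 4663 and 4823 in spermatids, against 189.6 and 205 in spermatocytes (log2 fold change 5.05 ± 0.42 SE, adjusted p = 4.4e-05). Spermatid replicate 1 was more than 2 times the other spermatid samples, and all 3 lay above both spermatocyte samples. Its best-known substrate gene, Cdkn1b (p27), had 12.4, 52.5 and 32.5 in spermatids, against 526 and 725 in spermatocytes (log2 fold change -4.42 ± 0.56 SE, adjusted p = 0.00035). Btrc, the other beta-TrCP gene, had 8572, 8870.4 and 9013 in spermatids, against 8589 and 7749 in spermatocytes and did not pass (log2 fold change 0.11 ± 0.09 SE, adjusted p = 0.28). Lrrc29 had 6923, 7322 and 7529 in spermatids, against 6677 and 6419 in spermatocytes. It did not pass either (log2 fold change 0.15 ± 0.09 SE, adjusted p = 0.16). With equal library totals Btrc and Lrrc29 passed as lower, at -0.53 and -0.50. Kdm2b, a histone demethylase with an F-box, had 4775, 5553 and 6089 in spermatids, against 8262 and 8042 in spermatocytes (log2 fold change -0.58 ± 0.12 SE, adjusted p = 0.0036).

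The machinery that switches SCF ligases on and off moved in parts. Of 21 genes of neddylation and the COP9 signalosome, 9 were higher in spermatids and 7 lower, with a median log2 fold change of 0.12. With equal library totals 4 were higher and 12 lower (median -0.53), against 4 and 13 after quantile normalization (-0.58). The 2 most abundant were Cops5, the catalytic subunit of the signalosome (log2 fold change 0.50 ± 0.10 SE, adjusted p = 0.0027), and Ube2m, which carries NEDD8 (log2 fold change 0.28 ± 0.09 SE, adjusted p = 0.025). With equal library totals Cops5 did not pass (-0.15) and Ube2m passed as lower (-0.36), and the call of Ube2m was also lost without spermatid replicate 2 (adjusted p = 0.074) or spermatocyte replicate 2 (0.19). Both subunits of the NEDD8-activating enzyme fell: Nae1 had 552, 591 and 487 in spermatids, against 4077 and 4041 in spermatocytes (log2 fold change -2.90 ± 0.12 SE, adjusted p = 2e-06), and Uba3 fell as well (log2 fold change -2.52 ± 0.28 SE, adjusted p = 0.00017). Of 10 enzymes that pass ubiquitin on with SCF, 5 were higher and 1 lower, against 4 and 5 with equal library totals and 4 and 3 with quantile normalization. Ube2d2b was the most abundant (log2 fold change 0.57 ± 0.12 SE, adjusted p = 0.0036), with a call lost at equal library totals (-0.08). How much of its sequence is shared with Ube2d2a was not measured, so its level is uncertain. Arih1, which puts the first ubiquitin on SCF substrates, had 22825, 23360.3 and 21550.5 in spermatids, against 3063 and 2948 in spermatocytes (log2 fold change 2.91 ± 0.08 SE, adjusted p = 5.9e-07). Ube2d1 was the lower one (log2 fold change -3.80 ± 0.35 SE, adjusted p = 7.5e-05). A list of 21 rows held the anaphase-promoting complex, the ligase that Fbxo43 and Fbxo5 inhibit, and genes that act with it or on it. Of these rows 6 were higher and 9 lower, against 5 and 14 with equal library totals and 6 and 14 with quantile normalization. The 9 lower rows include Mad2l1 (log2 fold change -1.88) and Bub1b (-1.98), whose proteins are not subunits of the complex. The most abundant rows of the list were those of the activator Fzr1 (log2 fold change 1.13 ± 0.10 SE, adjusted p = 6.4e-05) and of Ube2s, which did not pass (log2 fold change 0.16 ± 0.11 SE, adjusted p = 0.22).

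Of 30 genes of known F-box substrates, 13 were higher in spermatids and 13 lower, a median log2 fold change of 0.04. With equal library totals 6 were higher and 15 lower (median -0.61), against 10 and 15 after quantile normalization (-0.40). Aurka did not pass (log2 fold change -0.15 ± 0.12 SE, adjusted p = 0.28) and Per1 rose (log2 fold change 0.88 ± 0.08 SE, adjusted p = 7.1e-05); these are the 2 with the highest means. With equal library totals Aurka passed as lower (-0.80) and Per1 did not pass (0.24). Beside Fbxw7, Ccne2 was lower (log2 fold change -2.56 ± 0.17 SE, adjusted p = 1.6e-05) and Ccne1 was too (log2 fold change -0.37 ± 0.14 SE, adjusted p = 0.048), while Myc was higher (log2 fold change 1.55 ± 0.46 SE, adjusted p = 0.019) and Notch1 did not pass (log2 fold change -0.17 ± 0.23 SE, adjusted p = 0.52). The calls of Ccne1 and Myc were lost without either spermatocyte replicate (adjusted p = 0.078 and 0.24 for Ccne1, 0.076 and 0.091 for Myc), and that of Ccne1 also without spermatid replicate 2 (0.08) or 3 (0.12). Ccp110, a centriole protein that cyclin F marks for destruction, had 1149, 893 and 955 in spermatids, against 10333 and 10181 in spermatocytes (log2 fold change -3.37 ± 0.13 SE, adjusted p = 1.4e-06), and Ccnf itself had 1192, 1399 and 1485 in spermatids, against 672 and 654 in spermatocytes (log2 fold change 1.03 ± 0.13 SE, adjusted p = 0.00035), a rise that did not pass with equal library totals (0.38). Ccnd3, cyclin D3, had 11071, 13323 and 11716 in spermatids, against 214 and 154 in spermatocytes (log2 fold change 6.04 ± 0.16 SE, adjusted p = 5.1e-07). The 13 higher substrate genes also include Rrm2 (log2 fold change 1.05 ± 0.13 SE, adjusted p = 0.00028) and Cdkn1c (3.01 ± 0.30 SE, adjusted p = 0.00011). The pairs of Skp2 with Cdkn1b and of Ccnf with Ccp110 were picked after their values were seen. No relation between ligase and substrate levels was tested. All of these are transcript levels, and ubiquitin tagging acts on proteins, which were not measured.

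**Figure D5:**
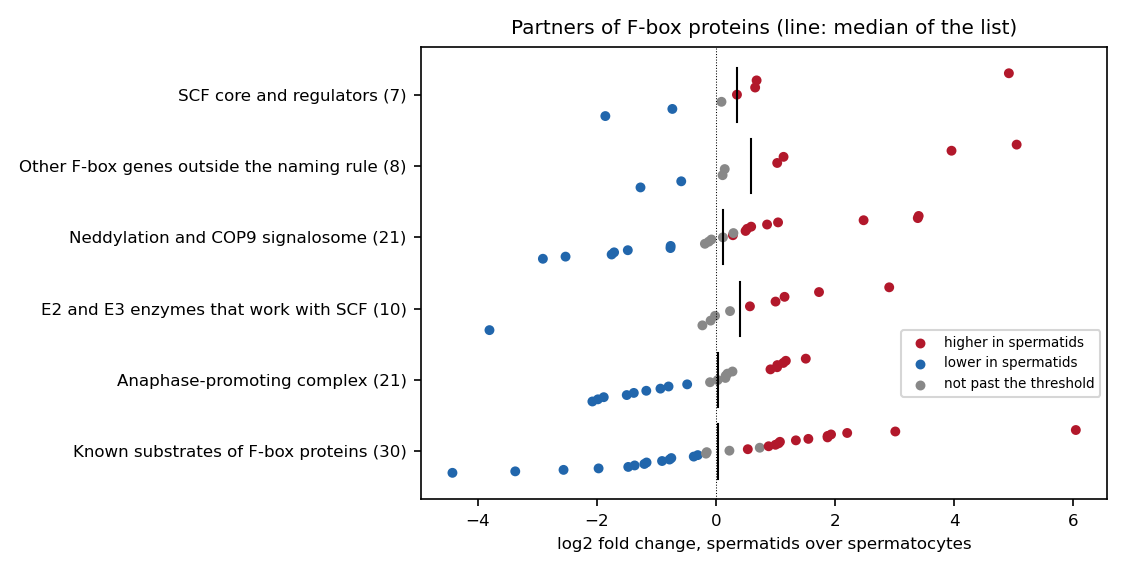
Log2 fold change of spermatids over spermatocytes (horizontal axis) for the tested genes of 6 lists around the F-box family, 1 point per gene; black lines are list medians, and the dotted line marks no change. Every list spreads to both sides of 0, with Ccnd3 at 6.04 and Cdkn1b at -4.42 the widest points of the substrates.

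Replicates of a cell type were mostly close, with a few members that stood apart. Of the 27 F-box rows that were higher in spermatids, 10 were highest in spermatid replicate 1, and the share over all rows was not counted. The median log2 ratio of spermatid replicate 1 to the mean of 2 and 3 was -0.14 over the tested F-box rows. Over all tested rows it was 0.02. The protamine gene Prm2 was in replicate 1 at 4.15 times the mean of the other spermatid samples. For Fbxo39 this ratio was 1.55, for Fbxo46 1.47 and for Fbxo44 1.34. Among the lower genes it was 1.96 for Fbxo43. Of the 69 tested rows, 13 were at least 1.3 times as high in spermatocyte replicate 2 as in replicate 1, among them 5 of the rows that were lower in spermatids. These include Fbxo16, with 29.5, 36.7 and 30.4 in spermatids, against 52.8 and 99.2 in spermatocytes, Fbxo21, with 702, 834 and 715 in spermatids, against 1528 and 2183 in spermatocytes, and Fbxo17. The ratio of spermatocyte replicate 2 to replicate 1 was 1.88 for Fbxo16, 1.43 for Fbxo21 and 1.40 for Fbxo17. Fbxo40, Fbxl16, Fbxo47, Fbxw26 and Fbxl7, which were higher in spermatids, also reached a ratio of 1.3. The share of all tested rows that reached 1.3 was not counted. The median ratio was 1.02 over the tested F-box rows. Over 19 Sertoli cell markers it was 1.32, with 18 of them higher in replicate 2. The part of Sertoli cells in these F-box values was not tested. The calls of Fbxo16, Fbxl6 and Fbxl19 were lost without spermatocyte replicate 2 (-0.70, adjusted p = 0.16; -1.01, adjusted p = 0.095; and -0.39, adjusted p = 0.076), and those of Fbxo21 and Fbxo17 were kept.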

How the data were processed

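Polyadenylated RNA was sequenced from 3 spermatid and 2 spermatocyte samples with a stranded library kit, per the labels' protocols. The deposited values are a normalized signal: read counts per gene that the authors scaled by library with DESeq, per the file headers. STAR 2.4.0 and mm10 are named in the submitters' processing notes. How reads were counted, by strand and when shared, is not given in the sources used here, so overlapping rows cannot be told apart; 41 of the 76 F-box rows overlap another row.

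Every value was a whole multiple of its column's smallest value within 0.001, for 100% of the values, and reads were recovered by that division. Intervals and floors (3 reads) cover counting error only. Rows with a mean of at least 10 were tested with limma 3.58.1 (R 4.3.3) on log2(value + 1), which understates the change of low genes, with eBayes (trended) and the Benjamini-Hochberg method. edgeR 4.0.16 (quasi-likelihood) and DESeq2 1.42.0 on the recovered reads, other pseudocounts, filters and scalings, and leaving out each sample were alternatives. The limma step was tested on simulated data. No batch is named in the labels.

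F-box genes, lists and tests were chosen with earlier results of these data known. Described in full are the 10 largest changes in each direction, the 6 highest means, the 6 highest means not past the threshold, and Fbxo5, Fbxo43, Fbxo47, Fbxw7, Fbxw11, Fbxl13, Fbxo24, Fbxo7 and Fbxw17. A member is counted but not described here. Of the lists, all members of the SCF core and the 2 highest means of the others are named, and further genes were named after their values were seen. Sequences are from RefSeq (GRCm38.p6), matched by symbol for 55 of 75 F-box symbols; exon lengths and shared 50-base stretches are from GENCODE transcripts. Python 3.11.15, pandas 2.3.3, numpy 2.4.6, scipy 1.17.1 and matplotlib 3.10.9 were used.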

Additional observations from a re-analysis of the deposited data

How the results depend on the processing

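With each spermatid sample left out in turn, 26 to 28 F-box rows were higher in spermatids and 27 to 29 lower. Over all rows tested, 37.7 to 40.3% were then higher and 35.8 to 38.7% lower. Leaving out a spermatocyte sample leaves 1 in its group, so no count is given for it. The F-box median was then -0.32 without spermatocyte replicate 1 and -0.23 without replicate 2. The F-box median log2 fold change, -0.32, was -0.085 with no filter on low values, -0.96 with equal library totals, -0.61 with quantile normalization, and -0.34 to -0.12 with each sample left out, beside a spread between samples of 0.11. Over all genes, the filter changed the number of rows tested more than the share that was lower. Unfiltered, 17263 of 48199 rows were lower (35.8%), and the filter at 100 left 6029 of 17295 (34.9%). The filter used here, at 10, gave 10359 of 28370 (36.5%). The share that was higher moved more, with 27% unfiltered, 40.6% at 10 and 46% at 100. edgeR called 27 F-box rows higher and 29 lower (40.7% and 36.6% of all rows), as did DESeq2 (40.6% and 36.1%), and DESeq2 with its own size factors 27 and 30 (39.6% and 37.3%). Of the values of named F-box genes under the alternatives, 535 kept their side of the threshold, 12 lost the call and 10 gained it; no called one changed sign, while Fbxo18, Fbxo27 and Fbxl20, not past the threshold, did under some alternatives (Fbxo18 0.11 and, with equal totals, -0.54; Fbxo27 0.20 and -0.45; Fbxl20 -0.08 and, without spermatocyte replicate 1, 0.02). Among other F-box rows, Fbxo33, Fbxo15, Fbxo8, Fbxw2, Fbxo42, Fbxl12 and, with equal totals only, Fbxl7 lost their higher call when totals were set equal or quantiles matched, and Fbxo33 was then at -0.27 and -0.08; the cause was not tested. No paired analysis was possible because the replicate numbers were given in accession order and pair no samples. With 3 and 2 samples, changes of low genes are the least certain.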

Other observations

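Rows that carry several symbols were outside the naming rule, and 2 of them include an F-box gene. The row of Fbxw10 and Trim16 on chromosome 11 had normalized counts of 3177, 2571 and 2461 in spermatids, against 1457 and 1397 in spermatocytes, a log2 fold change of 0.93 (limma adjusted p = 0.00064). All spermatid samples were above both spermatocyte samples, and the reads of Fbxw10, an F-box gene, and Trim16 cannot be told apart in it. The row of Fbxw16 and Fbxw19, which lies inside the Fbxw cluster on chromosome 9, had 3.10, 3.96 and 2.10 in spermatids and no read in spermatocytes, and was too low to test.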
